A study of Homo sapiens with 5 samples.

Results

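The GABA-A receptor subunit genes were examined in HEK293, an established cell line derived from human embryonic kidney. Members were the genes of the count table whose symbol names an alpha, beta, gamma, delta, epsilon, pi, theta or GABRR-class subunit. The family holds 19 such genes, and 3 of the 16677 genes in the table were members: GABRE (epsilon), GABRD (delta) and GABRR2 (GABRR class). The family was chosen by the GABRE counts, which had stood out in earlier results of the same contrast. The GABRE difference between groups is therefore given as a description, with no test. Messenger RNA was sequenced from 2 libraries of wild-type HEK293, labelled Control, and 3 libraries of HEK293 with genotype rs11607019, the T-to-C change of a variant that the series places in SIRT3, all in basal culture. SIRT3 encodes a mitochondrial deacetylase that needs NAD. Whether the libraries of a group stem from different clones or from 1 clone is not given in the labels. P-values therefore measure only the spread between these libraries, which may be technical.

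GABA-A receptors are chloride channels opened by the neurotransmitter GABA. Several subunits surround a central pore, most often alpha and beta subunits together with a gamma subunit, and the delta or epsilon subunit can stand in the place of gamma. Subunits of the GABRR class can form channels by themselves and are known from the retina. HEK293 cells are a common host for the study of these receptors from introduced subunit genes.

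Library totals ran from 17122569 to 17596084 counts, and the TMM scaling factors (trimmed mean of M-values, which correct for library composition) from 0.983 to 1.01. SIRT3 held 495 and 514 counts in the Control libraries and 458, 275 and 535 in rs11607019_1, rs11607019_2 and rs11607019_3. Of 8 genes reported in HEK293, 4 had a row: VIM, PAX2, NES and LHX1. Their summed level was 385 and 483 CPM (each count as a rate over the TMM-adjusted library total) in Control and 387 to 682 CPM in rs11607019, most of it VIM (328 to 618 CPM). PAX2, NES and LHX1 had log2 fold changes below 0 (−0.07, −0.38 and −0.38), and the groups overlapped at all 4 genes. NEFL, NEFM, PAX8 and EYA1 had no row in the table used here. None of the 5 blood cell markers and none of the 4 hepatocyte markers had a row.

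The promoter sequence of GABRE is shown because the results turn on that gene, and that of GABRR2 for comparison with another member. Both are the 250 bases before the gene start, 5′ to 3′ on the reverse strand, from RefSeq on GRCh38.p14, at chrX:151974677-151974926 and chr6:89315300-89315549. Capitals mark CpG dinucleotides. RefSeq promoter windows matched 2 of the 3 members, and GABRD was not matched.
GABRE: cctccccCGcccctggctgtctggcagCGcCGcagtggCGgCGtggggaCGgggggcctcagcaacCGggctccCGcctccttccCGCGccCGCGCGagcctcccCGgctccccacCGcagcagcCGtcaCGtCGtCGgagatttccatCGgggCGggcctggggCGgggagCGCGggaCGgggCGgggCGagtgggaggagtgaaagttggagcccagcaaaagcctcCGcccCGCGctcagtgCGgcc
GABRR2: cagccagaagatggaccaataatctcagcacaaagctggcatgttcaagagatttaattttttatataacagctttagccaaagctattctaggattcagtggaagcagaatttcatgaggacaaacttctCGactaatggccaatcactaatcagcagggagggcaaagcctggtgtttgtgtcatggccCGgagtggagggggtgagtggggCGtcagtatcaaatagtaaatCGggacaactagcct
The GABRE window held 31 CpG dinucleotides and had a GC content of 76.8%, and 89.1% of the 35116 promoter windows of the same length held fewer CpG. The GABRR2 window held 4 and had a GC content of 45.2%, and 29.3% of windows held fewer. The median window held 11 CpG at a GC content of 58.0%. Searched on both strands, the letters GGGCGG, the GC box motif, matched 5 times before GABRE and 0 times before GABRR2, and each match overlaps a marked CpG. At least 1 match was found in 42.6% of all windows. TATAAA matched 0 times before GABRE and 1 time before GABRR2, with a match in 10.7% of all windows. CCAAT matched 0 and 2 times, with a match in 32.01% of all windows. These matches are a description of letters and were not tested as binding sites.

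GABRE (ENSG00000102287) spans 151953124 to 151974680 of chromosome X, on the reverse strand, in GENCODE release 29 (GRCh38). It has 12 annotated transcripts, of which 1 is coding, with 9 exons, and 7 are classed as retained introns. It is also the host of the microRNA genes MIR224 and MIR452, both in intron 6 of the coding transcript on the same strand. Neither microRNA gene had a row in the table, and their levels were not analysed here. The arms from the 5′ side of each hairpin are shown because they share the GABRE transcript, with the seed (bases 2 to 8) in capitals. The seeds differ.
hsa-miR-224-5p: uCAAGUCAcuagugguuccguuuag
hsa-miR-452-5p: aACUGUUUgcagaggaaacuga
Merged exons of other annotated genes overlapped GABRE only at these 2 microRNA genes.

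GABRE was at a trace level in both Control libraries and was higher in each rs11607019 library. It held 6 counts in Control_1 and 11 in Control_2, against 167, 311 and 119 in rs11607019_1, rs11607019_2 and rs11607019_3. The 2 groups did not overlap, and rs11607019_2 was the highest library. By library total alone, without TMM scaling, GABRE stood at 0.350 CPM in Control_1 (95% Wilson interval 0.161 to 0.765) and 0.628 in Control_2 (0.351 to 1.13). It stood at 9.49 CPM in rs11607019_1 (8.16 to 11.04), 17.9 in rs11607019_2 (16.05 to 20.04) and 6.77 in rs11607019_3 (5.66 to 8.11). These intervals cover counting error only and not the spread between libraries. The reads carry no molecular identifiers, so duplicate reads could not be removed by them and the intervals may be too narrow.

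After TMM scaling the mean was 0.488 ± 0.196 CPM in Control (SD, n = 2) and 11.4 ± 5.77 CPM in rs11607019 (SD, n = 3), a ratio of means of 23.4. The highest rs11607019 library stood 2.66 times above the lowest, and the higher Control library 1.79 times above the other. The fitted log2 fold change was 4.52 (SE 0.55), the highest of the 16310 genes tested. It was 4.04 without rs11607019_2 and 4.999 without Control_2, the lowest and highest values when each library was left out in turn. Each tested gene had at least 3 counts in every library, so a gene absent from either group could not enter this ranking or the counts below. Of the tested genes, 2 (0.0123%) had a mean CPM at least 10-fold higher in rs11607019, and 0 had one at least 10-fold lower. The other of these 2 genes was ZNF700, a zinc finger gene named here after its values were seen, with 41 and 3 counts in Control and 244, 257 and 330 in rs11607019. The sequenced RNA came from whole cultures, so a few cells with much GABRE messenger RNA and many cells with little cannot be told apart. Among markers of mature kidney epithelium, 1 of 8 had a row, CUBN, at 0.408 and 0.912 CPM in Control and 0.925, 1.38 and 1.75 CPM in rs11607019. Its part in the GABRE difference was not tested.

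**Figure D1:**
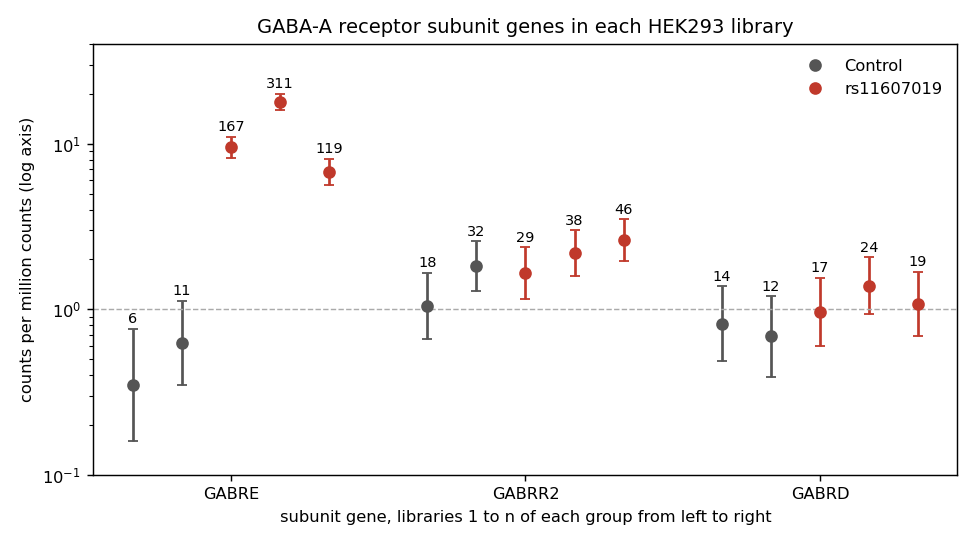
CPM by library total without TMM scaling (log axis) for GABRE, GABRR2 and GABRD in the 2 Control libraries (grey) and the 3 rs11607019 libraries (red). Bars are 95% Wilson intervals, numbers above them are raw counts, and the dashed line marks 1 CPM. GABRE runs from 6 and 11 counts in Control to between 119 and 311 in rs11607019, while the other subunit genes stay between 12 and 46.

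GABRR2 encodes a subunit of the GABRR class. It (ENSG00000111886) spans 89257208 to 89315299 of chromosome 6, on the reverse strand, and its exons share no base with another annotated gene. It held 18 and 32 counts in Control_1 and Control_2, and 29, 38 and 46 in rs11607019_1, rs11607019_2 and rs11607019_3. The groups overlapped, since Control_2 lay above rs11607019_1. The means were 1.44 ± 0.549 CPM in Control (SD, n = 2) and 2.15 ± 0.462 CPM in rs11607019 (SD, n = 3). The log2 fold change was 0.58 (SE 0.39, 95% confidence interval −0.30 to 1.46), and the adjusted p in edgeR's quasi-likelihood test was 0.728. Control_1 set much of this value, which was 0.24 without Control_1 and 1.03 without Control_2.

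GABRD encodes the delta subunit, which is known from receptors outside the synapse. It (ENSG00000187730) lies on the forward strand of chromosome 1, from 2019298 to 2030758, and overlaps no other annotated gene. It held 14 and 12 counts in Control_1 and Control_2, and 17, 24 and 19 in rs11607019_1, rs11607019_2 and rs11607019_3. Each rs11607019 library lay above both Control libraries, a pattern seen in that direction at 11.8% of all tested genes. The 95% Wilson intervals of all 5 libraries overlapped, from 0.392 to 1.198 CPM in Control_2 up to 0.930 to 2.06 CPM in rs11607019_2, without TMM scaling. The means were 0.750 ± 0.0931 CPM in Control (SD, n = 2) and 1.14 ± 0.207 CPM in rs11607019 (SD, n = 3). Its log2 fold change came to 0.61 (SE 0.40, 95% confidence interval −0.30 to 1.51), and the adjusted p in edgeR's quasi-likelihood test was 0.726. Neither GABRR2 nor GABRD passed the threshold, and neither did any other of the 16310 tested genes. No difference was detected at these counts with 2 and 3 libraries. For both genes the interval still includes no change and more than a doubling (a log2 fold change of 1).

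In edgeR's quasi-likelihood test 0 of the 16310 genes (0%) passed an adjusted p of 0.05, and 1243 (7.62%) passed 0.05 before adjustment. DESeq2's Wald test gave 32 genes at an adjusted p under 0.05. GABRR2 was not among them, and GABRD was given no adjusted p by that test. GABRR2 ranked 997 and GABRD 904 by log2 fold change from the highest. The plot of fold change against level shows GABRE apart from the genes of its level and the other subunits inside the cloud.

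**Figure D2:**
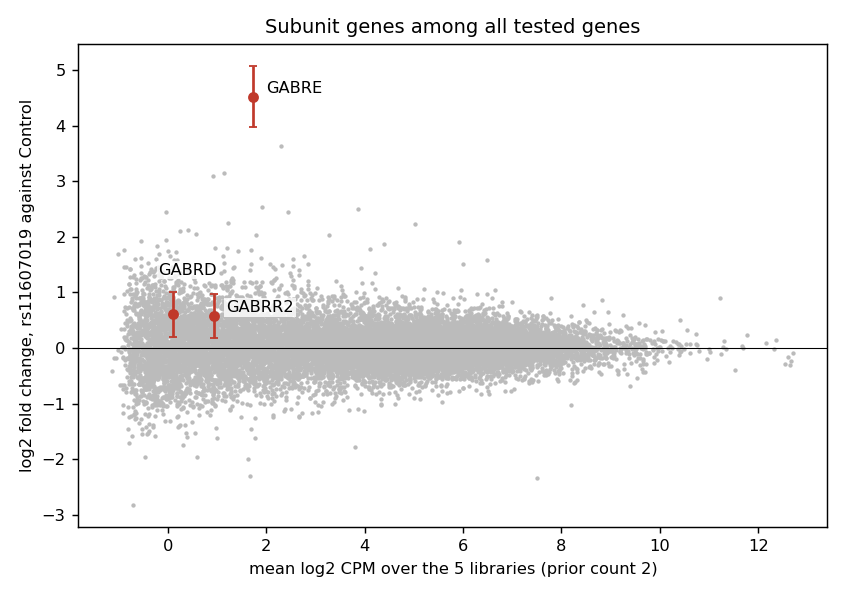
Log2 fold change of rs11607019 against Control for each of the 16310 tested genes (grey points), against the mean log2 CPM over 5 libraries. The subunit genes are red with SE bars: GABRE at 4.52 lies above all other genes, and GABRD at 0.61 and GABRR2 at 0.58 lie among genes of similar level.

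Levels were compared between subunits per length, as CPM per kilobase of merged exons. In the Control libraries GABRR2 was highest, at 0.470 and 0.818 CPM per kilobase. GABRD followed at 0.147 and 0.123, and GABRE was lowest at 0.0364 and 0.0653. The ranges of the 3 genes did not overlap there. In the rs11607019 libraries GABRE stood at 1.004, 1.86 and 0.699 CPM per kilobase and GABRR2 at 0.751, 0.978 and 1.16, so these 2 genes overlapped. GABRD was below both, at 0.177, 0.248 and 0.193. By this measure 0.181% and 0.537% of placed genes in the table were lower than GABRE in Control_1 and Control_2, against 19.5%, 28.6% and 13.9% in rs11607019_1, rs11607019_2 and rs11607019_3.

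The length taken for GABRE bears on this order, since retained introns bring its merged exons to 9612 bases, while its coding transcript has 3152 bases. Per kilobase of the longest coding transcript, a measure added after the data were seen, GABRE stood at 3.06, 5.66 and 2.13 CPM per kilobase in the rs11607019 libraries. GABRR2 stood at 0.996, 1.30 and 1.54 there, so GABRE was then above GABRR2 in each of them. This measure divides the counts of the whole gene by the length of that transcript alone. Reads from outside the transcript make it too high, more so for GABRE if its retained introns were read. The share of such reads was not examined, so the order of GABRE and GABRR2 in rs11607019 is not settled. The order in the Control libraries was the same with either length. Only GABRR2 reached 1 CPM in every library, so 1 of the 3 subunit genes was expressed by that rule. The count was 2 at 0.5 CPM in every library, with GABRD added, and 3 at 1 CPM in at least 2 libraries. At the last setting GABRE and GABRD passed through rs11607019 libraries only, and both were under 1 CPM in each Control library.

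The other 16 subunit genes had no row in the table used here, and their levels were not analysed here. They are all 6 alpha genes, all 3 beta genes, all 3 gamma genes, GABRP (pi), GABRQ (theta), GABRR1 and GABRR3. Every gene in the table has at least 3 counts in each library, so a subunit gene with fewer in a single library would be outside it. GABRA3 and GABRQ, which neighbour GABRE on chromosome X, are among the genes with no row.

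The genes around GABRE were compared to describe its position. Within 1 Mb of GABRE, 7 genes were tested. Their median log2 fold change was 0.02, and edgeR's test gave 0 with p under 0.05, adjusted or unadjusted. Over all tested genes 0% passed adjusted and 7.62% unadjusted, and 7 genes are few for such a count. The groups overlapped at each of the 7, while they did not overlap at 24.8% of all tested genes. The nearest was VMA21, an assembly factor of the proton-pumping V-ATPase, with 1592 and 1194 counts in Control and 1054, 1529 and 1136 in rs11607019 (log2 fold change −0.18, SE 0.21).

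For 3 other neighbours the value was under 0.05 in size. NSDHL, an enzyme of cholesterol synthesis, had a log2 fold change of 0.04 (SE 0.19), CETN2, which encodes a centrin of the centrosome, 0.02 (SE 0.21), and HMGB3, a chromatin protein gene, 0.01 (SE 0.22). ZNF185 had the highest, 0.50 (SE 0.32), with 88 and 103 counts in Control and 101, 188 and 120 in rs11607019. The pseudogenes RPL19P21 and RPL12P50 had 0.08 (SE 0.50) and −0.15 (SE 0.53) from 7 to 23 counts, and short reads can be shared with their parent genes. Of the 7 neighbours only ZNF185 kept its sign over all alternatives run, from 0.20 without rs11607019_2 to 0.67 without rs11607019_1.

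Set against the mean of the 5 libraries, the median of the 7 neighbours was highest in rs11607019_2, at 0.32 on the log2 scale, and between −0.20 and −0.04 in the other 4 libraries. The median of the 562 tested genes of chromosome X was 0.18 in rs11607019_2 and between −0.08 and 0.02 in the others. GABRE itself was also highest in rs11607019_2, at 2.43, with −2.84 and −2.17 in the Control libraries. The part of these shifts in the GABRE level was not tested. Around the other members, edgeR's test called 0 of 10 genes near GABRR2 and 0 of 56 near GABRD at an adjusted p of 0.05, and 0 and 6 at an unadjusted p of 0.05. The 6 genes near GABRD (10.7%, against 7.62% of all tested genes) were all higher in rs11607019, and 4.11% of all tested genes were higher at that p. The median log2 fold change was 0.09 for the 10 genes near GABRR2 and 0.05 for the 56 genes near GABRD.

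**Figure D3:**
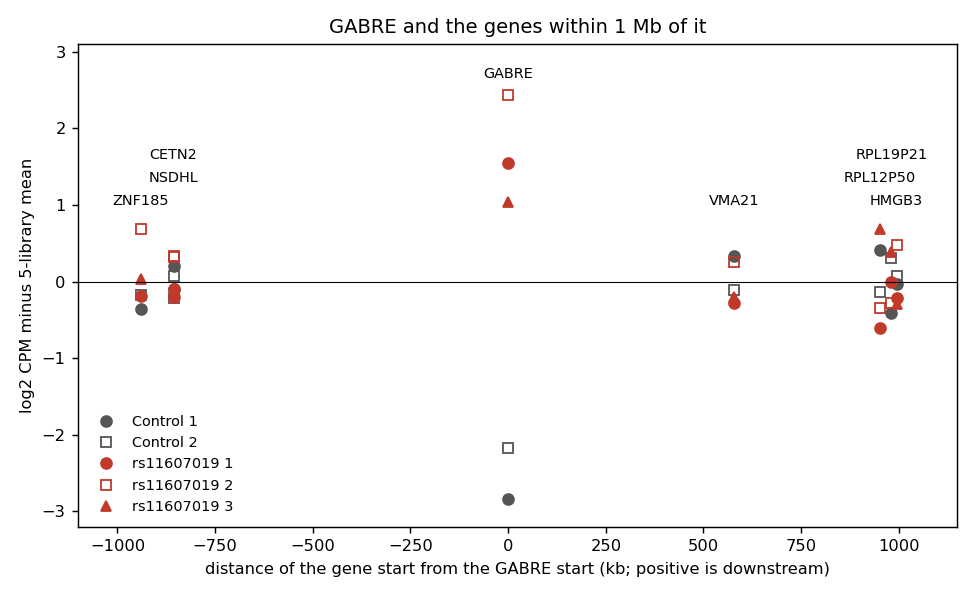
Log2 CPM minus the 5-library mean (vertical axis) for GABRE and the 7 tested genes within 1 Mb, against the distance of each gene start from the GABRE start in kilobases. Each symbol is a library, grey for Control and red for rs11607019. GABRE spans −2.84 to 2.43, while the libraries of both groups are mixed at each neighbour.

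Other genes of the GABA pathway were taken from 6 lists by role. Of 81 genes listed, 52 had a row and 51 were tested. In edgeR's quasi-likelihood test 0 of the 51 passed an adjusted p of 0.05, the lowest being 0.616. Before adjustment 5 (9.8%) passed 0.05, against 7.62% of all tested genes. Fold changes were above 0 for 26 genes and below 0 for 25. Their median on the log2 scale was 0.00221, against 0.0030 for all tested genes. All rs11607019 libraries lay above both Control libraries at 6 genes (11.8%) and below both at 7 (13.7%). All tested genes had 11.8% and 13%.

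Genes of receptor anchoring, trafficking and assembly had 9 of 18 higher and 9 lower and a median log2 fold change of 0.01. UBQLN1, a ubiquitin-like protein that binds receptor subunits, had the highest, 0.60 (SE 0.16). It stood at 146 and 136 CPM in Control and 197, 246 and 198 CPM in rs11607019, and the groups did not overlap, with an adjusted p of 0.616 by edgeR. SHISA7, an accessory protein of the receptor, had 0.43 (SE 0.34) from 21 to 32 counts. GPHN, which encodes the scaffold protein gephyrin, stood at 24.5 and 27.7 CPM in Control and 42.9, 37.8 and 23.3 CPM in rs11607019, and the groups overlapped. GABARAP, which encodes a receptor-associated protein of the autophagy machinery, had −0.36 (SE 0.44) from 14 to 32 counts, with −0.82 without Control_1 and 0.33 without Control_2. Of its merged exon bases, 30.5% are shared with AC120057.2 on the same strand and 25.2% with AC120057.3 on the opposite strand, so its level is uncertain. Its relatives GABARAPL1 and GABARAPL2 held 748 to 1554 and 1500 to 2135 counts.

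Genes of GABA synthesis, breakdown and transport had 5 of 10 higher and 5 lower, with a median of 0.01. GAD1, which makes GABA from glutamate, stood at 18.1 and 18.02 CPM in Control and 19.2, 16.5 and 19.4 CPM in rs11607019, with a log2 fold change of 0.02 (SE 0.19). The lowest value was that of ABAT, the enzyme that breaks GABA down. It stood at 22.1 and 22.7 CPM in Control and 19.9, 15.1 and 13.0 CPM in rs11607019 (−0.49, SE 0.22), and the groups did not overlap. The highest were the transporters SLC6A13, with 0.99 (SE 0.55) from 6 to 32 counts, and SLC6A12, with 0.82 (SE 0.40) from 19 to 49 counts. SLC6A13 had 0.38 without Control_1 and 2.07 without Control_2.

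The remaining lists were shorter or more weakly expressed. GABBR1, a subunit of the GABA-B receptor, had a log2 fold change of 0.25 (SE 0.17), and KCTD12, an auxiliary subunit, −0.37 (SE 0.21). GABBR1 had 0.07 without Control_2 and 0.47 without Control_1. Among genes that set the chloride gradient the highest were the potassium-chloride cotransporters SLC12A7, with 0.48 (SE 0.21), and SLC12A4, with 0.48 (SE 0.19), and at both the groups did not overlap. SLC12A7 stood at 57.3 and 73.4 CPM in Control and 76.6, 114 and 83.3 CPM in rs11607019. The lowest were the kinase gene STK39 with −0.22 (SE 0.18) and SLC12A2, the chloride importer, with −0.12 (SE 0.23), which became 0.06 without rs11607019_3 and 0.03 without Control_1. STK39 had −0.09 without Control_1. Of the endogenous modulators, DBI, whose product binds the benzodiazepine site, stood at 203 and 157 CPM in Control and 88.8, 126 and 108 CPM in rs11607019, and its groups did not overlap. TSPO, a cholesterol-binding protein of the outer mitochondrial membrane, had a log2 fold change of 0.0022 (SE 0.23) and SRD5A1, a steroid reductase, 0.0079 (SE 0.22). DBI had −0.74 (SE 0.19), and its adjusted p in edgeR's quasi-likelihood test was 0.616.

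Other subunits of the same receptor superfamily, the Cys-loop receptors, had 9 of 27 genes in the table, 8 nicotinic acetylcholine subunits and HTR3A, a serotonin receptor subunit. Their median log2 fold change was 0.06, with 5 higher and 4 lower. In edgeR's test 0 of the 9 had an unadjusted p under 0.05, against 7.62% of all tested genes, and 9 genes are few for such a count. The highest were CHRNB4, with 0.89 (SE 0.67) from 6 to 43 counts, and CHRNB2, with 0.59 (SE 0.60) from 4 to 17 counts. CHRNB4 had 0.10 without rs11607019_2, 0.30 without Control_1 and 1.91 without Control_2. CHRNB2 had −0.03 without Control_1 and 1.72 without Control_2. The lowest were CHRNB1 with −0.37 (SE 0.32) and CHRNA3 with −0.27 (SE 0.30). CHRNB1 had −0.81 without Control_1 and 0.26 without Control_2, and CHRNA3 had −0.15 without rs11607019_3 and −0.41 without rs11607019_1. CHRNA5 and CHRNB1 were the most abundant by count, at 267 to 359 and 265 to 576.

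**Figure D4:**
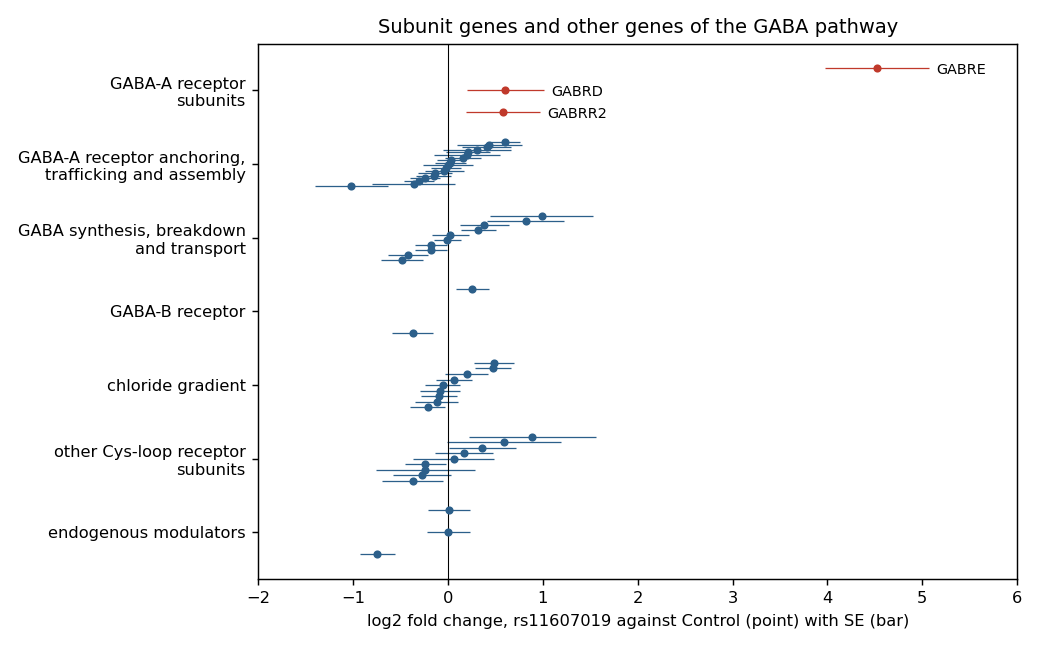
Log2 fold change of rs11607019 against Control (points) with SE (bars) for the 3 GABA-A receptor subunit genes (red) and the 51 tested genes of 6 pathway lists (blue). GABRE lies at 4.52, and the highest pathway gene at 0.99 (SLC6A13).

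The genes closest to GABRE in pattern were found by the root mean square distance between their deviations from their own 5-library means, on the log2 CPM scale (prior count 2). The closest was COL12A1, a collagen gene, at a distance of 1.03, where the median tested gene lay at 2.12. COL12A1 held 166 and 291 counts in Control and 1242, 1075 and 902 in rs11607019. Then came PHF24 at 1.17, with 8 and 9 counts in Control and 40, 44 and 29 in rs11607019, and ADSS1, an enzyme of AMP synthesis, at 1.21, with 5 and 36 against 53, 87 and 75. FRMD3 lay at 1.22, with 11 and 9 against 34, 52 and 40, and TNC, which encodes the matrix protein tenascin C, at 1.24, with 239 and 797 against 1718, 1611 and 2485.

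All 5 of these genes were higher in each rs11607019 library than in either Control library, as were 11.8% of all tested genes. The choice by likeness to GABRE favours that pattern. None of the 5 is on chromosome X, which holds 562 of the 16310 tested genes. The chromosomes of the 5 are 6 for COL12A1, 14 for ADSS1 and 9 for PHF24, FRMD3 and TNC. The libraries were ordered differently within rs11607019: GABRE was highest in rs11607019_2, as were PHF24, ADSS1 and FRMD3, whereas COL12A1 was highest in rs11607019_1 and TNC in rs11607019_3. The other subunits lay at 1.84 (GABRD) and 1.84 (GABRR2). The likeness rests on 5 libraries and on the difference for which GABRE was chosen, so it is a description only.

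**Figure D5:**
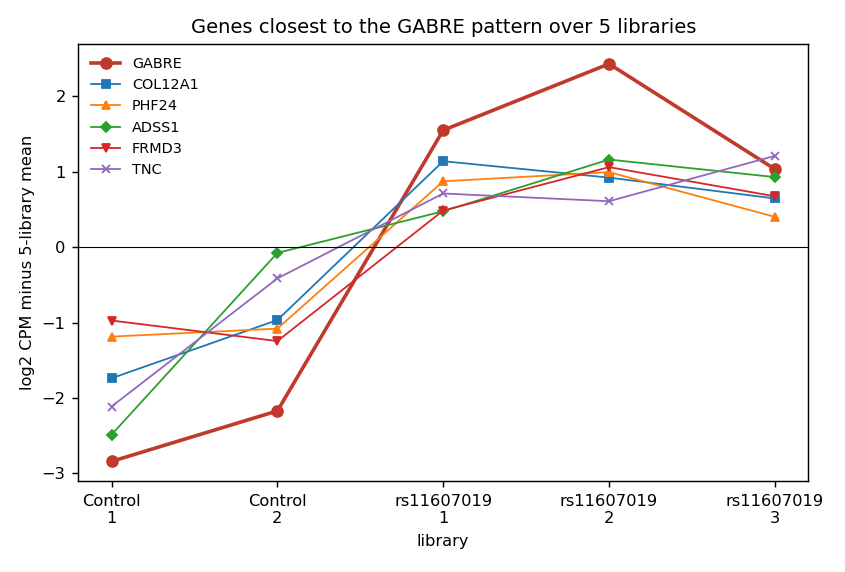
Log2 CPM minus the 5-library mean for GABRE (thick red line) and the 5 genes closest to it, in each library. All 6 genes lie below 0 in both Control libraries and above 0 in the rs11607019 libraries, and the GABRE line spans the widest range.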

How the data were processed

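Per the labels' protocols, RNA was extracted with TRIzol and strand-specific mRNA libraries gave single-end DNBSEQ reads of 50 bases. HISAT2, SAMtools, HTSeq and the build hg38 are named in the submitters' processing notes, while their versions, the annotation, the strand setting and any filter on genes are not given in the sources used here. The authors deposited raw read counts per Ensembl gene, and every count in the table is at least 3. Symbols came from the gene name table (16627 rows) and GENCODE release 29 (46 rows), which also gave positions and lengths for 16565 rows.

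Genes were filtered with filterByExpr by group (16310 kept), scaled by TMM and tested in edgeR 4.0.16 by quasi-likelihood (glmQLFTest, R 4.3.3, robust, 5 libraries, group as the only term), with Benjamini-Hochberg adjustment over all tested genes and a threshold of 0.05. The alternatives used DESeq2 1.42.0, limma 3.58.1 (voom), other scalings and filters, a correction for GC content and length, a replicate block and each library left out. Genes were named by a written rule: each subunit gene with a row, the 2 highest and 2 lowest members of each list, the tested genes within 1 Mb of GABRE, the 5 genes closest to GABRE, and SIRT3. GPHN, GAD1, GABARAPL1, GABARAPL2, CHRNA5 and ZNF700 were added after their values were seen. Some genes that the rule names are not reported here. Markers of synaptic neurons (4 of 6 with a row) summed to 8.22 and 9.47 CPM in Control and 6.76 to 10.4 CPM in rs11607019, and those of fibroblasts (2 of 6) to 30.7 and 48.2 CPM and 30.6 to 47.6 CPM. These sums hide changes of single markers. The log2 fold change was above 0 for 2 neuron markers and below 0 for 2, and for 1 and 1 of the fibroblast markers. Per pair of libraries, the chi-square statistic over genes was at least 16.98 per degree of freedom, so no library repeated another. The lowest pair was Control_2 with rs11607019_3, which are of different groups. The 2 Control libraries stood at 24.97, pairs of rs11607019 libraries at 23.78 to 33.66, and pairs across groups at 16.98 to 38.12. Members and lists were chosen with earlier results of these data known.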

Additional observations from a re-analysis of the deposited data

How the results depend on the processing

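The log2 fold change of GABRE stayed between 4.04 and 4.999 over 12 alternatives, and those limits came from leaving out rs11607019_2 and Control_2. GABRE has no value with a minimum of 10 counts in every library, which it does not reach. Over 13 alternatives GABRR2 ran from 0.24 to 1.03 and GABRD from 0.45 to 0.74, with adjusted p-values between 0.596 and 0.998. Their median ran from 0.49 to 0.76 with each library left out. DESeq2 gave no adjusted p for GABRD. The number of other subunits, of pathway genes and of genes near GABRE past the threshold was 0 in each alternative that kept 2 Control libraries. Over all tested genes the count was 32 with DESeq2's Wald test, 4 without rs11607019_3 and 0 in the others of these. A count of 0 therefore says little about these genes. At an unadjusted p under 0.05 the pathway genes numbered from 2 without rs11607019_2, where 4.73% of all tested genes passed, to 8 with the replicate block, where 9.55% did. The number of subunits called expressed was 1, and became 2 at 0.5 CPM in every library and 3 at 1 CPM in at least 2 libraries. In the last case GABRE and GABRD passed through rs11607019 libraries only. Fits without a Control library leave 1, which is assumed to vary like the other group. With the replicate block GABRE had 4.79, GABRR2 0.45 and GABRD 0.64, and the count of calls over all genes was 0 as without it. The labels give no pairing, and deviations of same-numbered libraries correlated at 0.12 for replicate 1 and −0.11 for replicate 2. Counts of 12 to 46 limit what could be detected for GABRD and GABRR2, as do 6 and 11 for GABRE in Control.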
